A study of Mus musculus with 6 samples.

Results

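The B cells of 2 samples of CD45+ cells sorted from mouse brain tumors were examined by single-cell RNA sequencing. They were 228 of the 18066 CD45+ cells that passed the filters on cells, with 182 of 9352 in sample 1 and 46 of 8714 in sample 2. The cells were chosen by their own UMI counts: a cell was taken as a B cell when it had at least 200 genes, at most 10% mitochondrial UMIs, at least 3 UMIs summed over Cd79a, Cd79b and Ms4a1, no UMI of Cd3d, Cd3e or Cd3g, at most 2 UMIs of C1qa, C1qb and C1qc together, and less than 0.5% of its UMIs from S100a8 and S100a9. A UMI is a molecular tag that counts 1 captured RNA molecule once. The tumors came from SB28, a mouse glioma line, of which 10000 cells were injected into the brain, and tissue was taken on day 18. Blood was drawn and the mice were perfused before the tumors were removed, per the labels' protocols. The remaining 4 libraries of the series hold neutrophils sorted as CD45+ CD11b+ LY6G-high LY6C-low cells, 2 from tumor and 2 from blood. All 6 libraries came from tumor-bearing mice given no treatment named in the labels, and no library of tumor-free mice was analysed here. The labels do not say whether the samples came from separate mice or pools, nor the animals' strain, age or sex, so p-values cover no more than the spread between the 2 samples, and part of that spread may be technical. The libraries of sample 1 and sample 2 shared 35 cell barcodes, and sample 1 shared 162 with a tumor neutrophil library, against 3 to 18 in the other pairs of libraries. None of the B cells had a shared barcode. The 2 libraries held 82077047 and 129422458 UMIs, of which 572997 and 239652 were in B cells.

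B cells carry an antigen receptor made of immunoglobulin heavy and light chains, whose signal passes through the CD79A and CD79B proteins. Naive B cells display the receptor as IgM and IgD, and stimulated ones can switch to other heavy-chain classes and become antibody-secreting plasma cells. B cells also present antigen on MHC class II molecules. The normal brain holds few of them outside its borders, and in gliomas they are usually a small part of the immune cells.

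B cells made up 1.95% of the CD45+ cells in sample 1 (95% exact Clopper-Pearson interval 1.68 to 2.25%) and 0.528% in sample 2 (0.387 to 0.704%), a ratio of 3.69. The intervals do not overlap, but they cover counting error only, and with 1 library a sample there is no test of the difference. T cells, taken as cells with at least 3 UMIs of the 3 Cd3 genes, were 2.01% in sample 1 (1.74 to 2.32%) and 1.45% in sample 2 (1.21 to 1.72%). Conventional dendritic cells went the other way, at 2.95% in sample 1 (2.62 to 3.32%) and 3.91% in sample 2 (3.52 to 4.34%). There were 0.968 B cells for each T cell in sample 1 and 0.365 in sample 2. The ratio between the samples kept its direction, between 2.82 and 3.97, when the gate was set at 5 or 2 UMIs, when the mitochondrial limit was 5%, and when the C1q limit, the Cd3 limit, the highest doublet scores or the cells rich in Lyz2 were dropped.

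**Figure D1:**
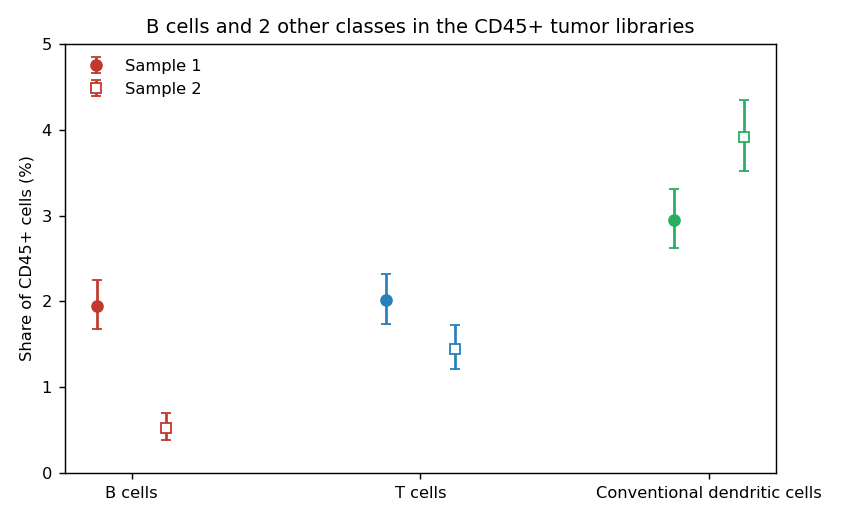
Share of CD45+ cells (%, y axis) held by B cells, T cells and conventional dendritic cells in sample 1 (filled circles) and sample 2 (open squares), with exact 95% binomial intervals that cover counting error only. B cells sit at 1.95% in sample 1 and 0.528% in sample 2, while dendritic cells are higher in sample 2.

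The 3 genes of the rule are given as a description, since they chose the cells. Cd79a had a UMI in 95.1% of the B cells of sample 1 and 97.8% of those of sample 2, Cd79b in 73.1% and 89.1%, and Ms4a1, which encodes CD20, in 64.8% and 60.9%. The edge of the gate was looked at with Ebf1, Bank1 and Pax5, which the rule did not use. Of the cells just inside it, with 3 UMIs, 94.4% of 36 in sample 1 and 75% of 4 in sample 2 had a UMI of at least 1 of them. Of the cells just outside it, with 2 UMIs, 47.7% of 44 and 57.1% of 7 did, and 19 and 3 of these cells had 5 or more Lyz2 UMIs. Without the limit on C1q the rule took 215 cells in sample 1 and 69 in sample 2.

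The label of B cells held on markers that the rule did not use. Ebf1, a transcription factor that opens the B cell programme, had a UMI in 98.4% of B cells of sample 1 and 95.7% of those of sample 2. Bank1, a scaffold of B cell receptor signalling, had one in 94.5% and 91.3%, and Pax5, the factor that holds B cell identity, in 75.3% and 76.1%. Free RNA can give UMIs in droplets of other cells, so the same shares were taken in T cells, where Ebf1 was seen in 4.79% of sample 1 and 2.38% of sample 2, and Bank1 in 0.532% and 0.794%. The median B cell had 2222 UMIs in sample 1 and 3633 in sample 2, and the median T cell had 5223 and 6316. At 1000 UMIs a cell, which left out 2 shallow B cells of sample 1 and none of sample 2, Ebf1 was seen in 90.6% and 93.5% of B cells, in 1.06% and 0% of T cells, and in 1.15% and 0.0736% of phagocytes rich in C1q, whose median depths were 11419 and 17767 UMIs.

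Markers of other cell types were then summed in the B cells, where the rule itself kept Cd3, C1q, S100a8 and S100a9 low. Of 10 T cell markers 4 had any UMI in the B cells, with a summed level of 12.2 CPM (counts per 1000000 UMIs of the class in its library) in sample 1 and 4.17 CPM in sample 2, against 2697 and 2715 CPM in T cells, and Cd3d, Cd3e, Cd3g, Cd8a, Cd4 and Bcl11b were at 0. All 12 macrophage markers had a UMI, with sums of 5065 and 2575 CPM in B cells, 3609 and 3111 CPM in T cells, and 26480 and 30546 CPM in all other CD45+ cells. Neutrophil markers summed to 269 and 20.9 CPM in B cells, with Ly6g, Camp and Ngp at 0, and the 5 red cell markers were all at 0. Microglia markers, of which 7 of 9 had a UMI, summed to 201 and 159 CPM in B cells against 877 and 1068 CPM in all other CD45+ cells, with Siglech and Sparc at 0 in the B cells. Conventional dendritic cell markers, of which 7 of 8 had a UMI, summed to 40.1 and 29.2 CPM in B cells against 2191 and 2642 CPM in the dendritic cells. Summed levels of 2 lists were higher in B cells than in all other CD45+ cells. Stromal, endothelial and tumor markers summed to 365 and 221 CPM in B cells against 49.1 and 42.7 CPM, but 208 of the 209 UMIs in sample 1 and all 53 in sample 2 were of Pecam1, an adhesion molecule that leukocytes also carry, and 7 of the 9 markers were at 0. Plasmacytoid dendritic cell markers summed to 492 and 605 CPM in B cells against 434 and 358 CPM, of which Tcf4, a factor that B cells also use, gave 431 and 538 CPM in B cells, and Siglech, Klk1, Cd300c and Smim5 were at 0. The part of these markers in the results was not tested. Much of the Lyz2 signal in sample 1 lay in few cells: 11 of the 182 B cells had 5 or more Lyz2 UMIs, and they held 979 of the 1047 Lyz2 UMIs of the class. Their median depth was 12104 UMIs, against 2172 in the other B cells of sample 1, and 9 of the 11 had a UMI of Ebf1, Bank1 or Pax5. In sample 2 there was 1 such cell, with 26361 of the 239652 B cell UMIs and no UMI of Ebf1, Bank1 or Pax5, and it also met the plasma gate described further on. These cells are called Lyz2-rich below, and the total counts of genes called are given without them too.

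Against all other CD45+ cells of the same libraries, B cells were set apart by immunoglobulin genes, by the receptor's signalling chain and by the transcription factors of the lineage. UMIs were summed over the cells of each class in each library and fitted with edgeR's quasi-likelihood test, with the library as a block and Benjamini-Hochberg adjustment over 15666 genes. Of these, 1109 were higher (7.08%) and 2190 lower (14%) in B cells at an adjusted p under 0.05, with a median log2 change of -0.36 over all genes tested. Of 16 lineage transcription factors, 15 rose and none fell (median 3.47). Of 22 surface and adaptor genes, 16 rose and none fell (median 3.55). Since the rule chose B cells by genes that go with these lists, the counts describe the class and are no independent evidence of it. Over all genes, leaving out the Lyz2-rich cells after seeing the data gave 1457 higher (9.32%) and 2728 lower (17.4%).

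Pax5 (Ensembl gene ENSMUSG00000014030, mm10 chr4:44524757-44710487) had 607 CPM in B cells of sample 1 and 492 CPM in sample 2, against 1.61 and 0.225 CPM in the other cells. The groups were far apart, at a log2 change of 9.38 ± 0.46 (SE, adjusted p = 1.12e-86). Ebf1 had 4098 and 3797 CPM in B cells and 18.7 and 2.35 CPM in the others (log2 8.88 ± 0.57). Pou2af1, a B cell coactivator of octamer-binding factors, had 381 and 388 CPM in B cells against 1.03 and 0.124 CPM. Fcmr, which encodes the Fc receptor for IgM, stood at 164 and 221 CPM in B cells against 0.577 and 0.0621 CPM. The largest falls were of myeloid genes: Sparc, at 0 in B cells, was at least 26.7-fold lower, and Ccl17, with 1 count in the B cells, had 0.0112 times the level of the other cells (95% counting interval 0.000284 to 0.0625). In the fit to all other cells the error of a gene rested on the trend over genes, with 15670 total degrees of freedom, against 9.93 and 9.15 in the fits to T cells and dendritic cells, so its p-values are not comparable with theirs.

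T cells, the other lymphocytes of the tumor, are a closer comparison, made with the same B cell sums. Of 8599 genes tested against them, 464 were higher in B cells (5.4%) and 500 lower (5.81%), and the median log2 change was -0.01. Without the Lyz2-rich cells, which were left out after seeing the data, 841 were higher and 1050 lower. Of the 22 surface and adaptor genes 21 rose and none fell, and of the 16 transcription factors 12 rose and none fell. Bank1 had 2510 and 2237 CPM in B cells and 0.801 and 0.886 CPM in T cells, with 1 count in each T cell sum. Ly6d, at 489 and 572 CPM in B cells and 0 in T cells, was at least 407-fold higher, and Mzb1 at least 435-fold. The floor of such a bound is 3 counts over the reference cells of both libraries. The largest falls included Tox, a factor of chronically stimulated T cells, which had 0 UMIs in B cells and 1000 and 828 CPM in T cells, and Cd28, the T cell costimulatory receptor, at 0 in B cells and 354 and 238 CPM in T cells. They were at least 248.8-fold and 80.9-fold lower in B cells.

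Conventional dendritic cells, like B cells and macrophages, are professional antigen-presenting cells. Against them 815 of 9379 genes were higher in B cells (8.69%) and 1211 lower (12.9%), with a median log2 change of -0.05, and without the Lyz2-rich cells the counts were 1357 and 1950. Pax5 had no UMI in dendritic cells and was at least 1106-fold higher in B cells. Batf3, a factor of cross-presenting dendritic cells, had no UMI in B cells against 144 and 169 CPM in dendritic cells, and was at least 43.2-fold lower. Of the lineage transcription factors 15 of 16 rose against dendritic cells, and the remaining one, Irf8, which dendritic cells also need, fell. It had 183 and 205 CPM in B cells and 553 and 449 CPM in dendritic cells (log2 -1.52 ± 0.25, adjusted p = 0.00221).

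**Figure D2:**
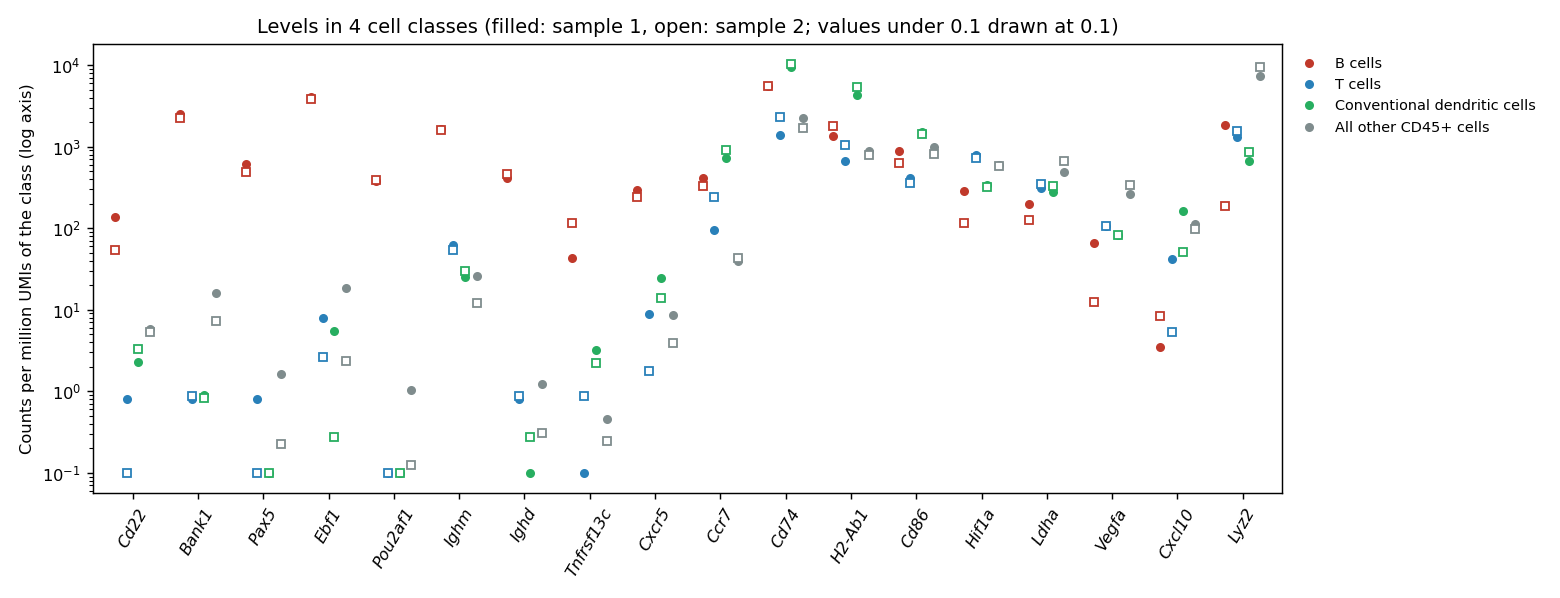
Level of 18 genes in CPM, counts per 1000000 UMIs of a class, (log axis, values under 0.1 drawn at 0.1) in B cells, T cells, conventional dendritic cells and all other CD45+ cells; filled circles are sample 1 and open squares sample 2. Pax5 and Ebf1 stand above the other classes in both samples, Cd74 and H2-Ab1 lie below the dendritic cells, and Lyz2 in B cells differs between the samples, at 1827 and 188 CPM.

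The promoters of genes in the lineage lists were searched for the motifs of EBF1 and of the octamer-binding factors, since both Ebf1 and the octamer coactivator Pou2af1 were high in B cells. The EBF1 palindrome was searched as TCCC and GGGA with any 2 bases between them, and the octamer as ATGCAAAT. Both strands of the 250 bases before the start site were searched, and the motifs do not overlap each other in the promoters shown. RefSeq promoters (GRCm38.p6) were matched for 33 of the 41 genes searched. The palindrome was in those of Cd22 and Foxo1 and in 0.779% of all 32851 promoters, and the octamer was in that of Blnk and in 1.60% of all. Each of the 3 sequences below is the searched window of 250 bases, ending 1 base before the start site. It reads 5′ to 3′ on the gene's strand, and the capitals mark the motif. Cd22, an inhibitory receptor that binds sialic acids, lies on the minus strand with its window at chr7:30879029-30879278. Foxo1, a factor of B cell development and recirculation, lies on the plus strand at chr3:52268087-52268336. Blnk, the adaptor behind the B cell receptor, lies on the minus strand at chr19:40994222-40994471, and its octamer reads in reverse.
Cd22: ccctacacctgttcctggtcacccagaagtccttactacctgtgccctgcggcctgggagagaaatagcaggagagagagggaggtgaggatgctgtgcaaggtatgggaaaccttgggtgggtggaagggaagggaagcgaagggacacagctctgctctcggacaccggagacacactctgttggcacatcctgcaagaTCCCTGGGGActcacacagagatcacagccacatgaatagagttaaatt
Foxo1: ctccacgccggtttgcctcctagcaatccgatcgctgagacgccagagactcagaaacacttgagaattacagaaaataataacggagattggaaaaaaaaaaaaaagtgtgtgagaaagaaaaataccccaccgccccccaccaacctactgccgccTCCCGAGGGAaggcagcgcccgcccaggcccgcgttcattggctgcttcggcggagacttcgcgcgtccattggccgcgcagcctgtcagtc
Blnk: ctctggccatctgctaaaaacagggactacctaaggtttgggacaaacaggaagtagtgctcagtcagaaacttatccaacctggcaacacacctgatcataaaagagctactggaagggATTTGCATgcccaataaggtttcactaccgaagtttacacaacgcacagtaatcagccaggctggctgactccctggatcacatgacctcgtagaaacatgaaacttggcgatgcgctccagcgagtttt
A match of letters is a description and shows no binding. Cd22 had 136 and 54.3 CPM in B cells against 5.85 and 5.28 CPM in all other CD45+ cells, Foxo1 had 648 and 367 CPM against 56.4 and 40.9 CPM, and Blnk had 449 and 472 CPM against 37.2 and 36 CPM. All of these values were higher in the B cells of both samples, with log2 changes of 3.77 ± 0.38 for Cd22, 3.02 ± 0.35 for Foxo1 and 3.33 ± 0.35 for Blnk (adjusted p at most 6.85e-16). These 3 genes were named for their promoters, after their values were seen.

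Most B cells carried the heavy chains of unswitched cells. Ighm, the constant gene of IgM (mm10 chr12:113418558-113422730, minus strand), had a UMI in 92.9% of B cells of sample 1 (88.1 to 96.1%) and 91.3% of sample 2 (79.2 to 97.6%). Ighd, the constant gene of IgD (chr12:113406604-113416324, minus strand), had one in 64.3% (56.9 to 71.2%) and 76.1% (61.2 to 87.4%), and at 1000 UMIs a cell in 41.7% and 50%. T cells carried Ighm UMIs in 25.5% and 27% of cells, and in 6.91% and 4.76% at 1000 UMIs, against 77.2% and 76.1% of B cells at that depth. In level, Ighm had 1653 and 1619 CPM in B cells and 61.6 and 54.1 CPM in T cells (log2 4.91 ± 0.28, adjusted p = 6.91e-06), and Ighd had 415 and 459 CPM in B cells and 0.801 and 0.886 CPM in T cells. Cells with at least 2 UMIs of the other heavy-chain classes and no Ighd were 6 in sample 1 (3.30%) and 4 in sample 2 (8.70%). All the cells that met the plasma gate described below, 5 and 3, were among them. All 9 immunoglobulin constant genes tested rose against all other CD45+ cells, T cells and dendritic cells, beside 7.08%, 5.4% and 8.69% of all genes. Not all of these rises belong to most B cells. The plasma-gate cells held 2730 of the 2747 Ighg2c UMIs of B cells in sample 1 and 2544 of 2550 in sample 2.

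The light-chain calls differed between the samples. Among B cells with 3 or more light-chain UMIs, 115 of 161 in sample 1 (71.4%) and 14 of 45 in sample 2 (31.1%) had at least 90% of them from Igkc, 3 and 2 had at least 90% from the lambda genes, and 43 (26.7%) and 29 (64.4%) had a mixture. Iglc1, Iglc2 and Iglc3 had 251, 83 and 59 UMIs in the B cells of sample 1 and 83, 157 and 131 in those of sample 2. In T cells Iglc1 had 1 and 0 UMIs and the other lambda genes 0, and in dendritic cells all were at 0. A mixture within 1 droplet can come from free RNA, and its part in the shares was not tested. Igkc was the most abundant of these genes, with 11525 CPM in B cells of sample 1 and 36244 CPM in sample 2, against 22.4 and 8.86 CPM in T cells. Iglc2 and Iglc3 are near-identical copies, so their split is uncertain, and so is the split between Ighg2b and Ighg2c.

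A few cells carried most of the immunoglobulin RNA. The plasma gate, at least 2 UMIs of Jchain and at least 1 of Sdc1 or Prdm1, held 5 B cells of sample 1 (2.75%) and 3 of sample 2 (6.52%). Jchain encodes the chain that joins IgM and IgA, Sdc1 the plasma cell surface protein CD138, and Prdm1 the factor that drives secretion. These cells held 8192 of the 10960 constant-gene UMIs of B cells in sample 1 (74.7%) and 11197 of 12743 in sample 2 (87.9%). In a cell, immunoglobulin constant genes were 7.57% to 37.6% of all UMIs. The heavy chain was mainly Ighg2c in 7 of the 8 cells and Ighg2b in the other one, in sample 2, with 591 UMIs. The 8 cells held 2730 of 2747 Ighg2c UMIs in sample 1 and 2544 of 2550 in sample 2, and 297 of 301 and 397 of 398 Jchain UMIs. A plasma cell can lose CD20 and CD79 RNA, and 3 cells of sample 1 and 0 of sample 2 that met the plasma gate lay outside the B cell rule.

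**Figure D3:**
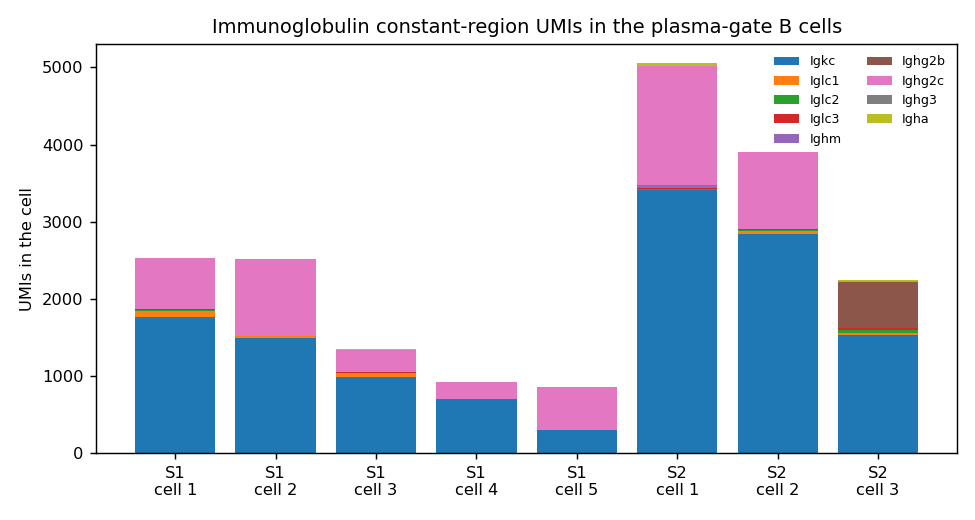
UMIs of the immunoglobulin constant genes (y axis) in each of the 8 B cells that met the plasma gate, 5 of sample 1 (S1) and 3 of sample 2 (S2), stacked by gene. Igkc is the largest part in most cells, with Ighg2c as the heavy chain in 7 of them and Ighg2b in the other one.

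Most of the calls for secretory genes rest on these 8 cells. Of 9 plasma cell genes tested, 5 rose against all other CD45+ cells, 5 against T cells and 6 against dendritic cells, and none fell. Of all genes, 7.08%, 5.4% and 8.69% rose in these comparisons. Without the plasma-gate cells, 2 of 9 rose and 2 fell against the other CD45+ cells, beside 8.13% and 15.5% of all genes. In that setting 1 of 7 rose against T cells, beside 6.77% of all genes. For dendritic cells 2 of 7 rose and 2 fell, beside 10.1% and 13.8%. Jchain had 525 and 1661 CPM in B cells against 2.20 and 0.0853 CPM in all other CD45+ cells (log2 10.35 ± 0.56), and its log2 change was 1.91 and no longer called without these cells. Mzb1, a chaperone of antibody secretion that resting B cells also use, was still called without them, at a log2 change of 7.92. Ighg2c gave 11.79 ± 0.67 with them and 3.75 without.

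Cells with 2 or more UMIs of Mki67 and Top2a were 1 B cell in sample 1 and 3 in sample 2. The cell in sample 1 also met the plasma gate, with 9 Mki67 and 16 Top2a UMIs. Among those in sample 2, 1 plasma-gate cell had 16 and 14 such UMIs, and another had 13 and 20. In samples 1 and 2, 1 and 0 B cells had a UMI of Rag1, Rag2, Dntt, Vpreb1 or Igll1. Of 18 proliferation genes 2 fell against all other CD45+ cells and none rose, a share near the 14% of all genes that fell, and none of 15 passed against T cells. Without the plasma-gate cells 8 of the 18 fell against all other CD45+ cells, beside 15.5% of all genes, and 3 of 13 against T cells, beside 6.57%. Mki67 had 19.2 and 138 CPM in B cells, 84.9 and 48.7 CPM in T cells, and 67.4 and 55.7 CPM in all other CD45+ cells, so that the groups overlapped. Of 9 germinal centre genes tested against all other CD45+ cells, Neil1, a DNA repair enzyme, rose and Basp1, a membrane-bound protein, fell. Of all genes, 7.08% rose and 14% fell in that comparison. Of 7 developing B cell genes 3 fell and Vpreb3 rose, beside the same shares of all genes. Vpreb3 had 129 and 184 CPM in B cells and 0.209 and 0.0310 CPM in the other CD45+ cells. Vpreb3 is also expressed by mature B cells. Il7r, the receptor for the growth factor of B cell precursors, fell against T cells, at 35 and 1 UMIs in B cells and 969 and 952 in T cells (log2 -4.44 ± 0.54, adjusted p = 0.000478). Of 14 genes of atypical and marginal zone B cells, 4 rose and 3 fell against all other CD45+ cells, beside 7.08% and 14% of all genes. Dtx1, a Notch target in marginal zone B cells, was among the rises, with 54.1 and 62.6 CPM in B cells against 0.393 and 0.163 CPM (log2 7.40 ± 0.62), and Zeb2 fell, with 613 and 134 CPM against 1359 and 1099 CPM (log2 -2.36 ± 0.41).

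The BAFF receptor and chemokine receptors of lymphoid follicles were higher in B cells. Tnfrsf13c, the BAFF receptor that mature B cells need for survival, had 43.6 and 117 CPM in B cells against 0.455 and 0.248 CPM in all other CD45+ cells (log2 7.38 ± 0.52, adjusted p = 2.90e-42). Tnfsf13b, which encodes BAFF itself, had 1 UMI in the B cells and 9.20 and 9.87 CPM in the other cells, a ratio of 0.128 (95% counting interval 0.00324 to 0.714). Tnfrsf17, the receptor of plasma cells for BAFF and APRIL, had 0 UMIs in the B cells of both samples, and in T cells and dendritic cells. Of 9 genes of the BAFF and APRIL system 3 rose and 2 fell against the other cells, where 7.08% and 14% of all genes did. Of 16 homing and retention receptors 11 rose and 2 fell, with a median log2 change of 2.58.

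Cxcr5, the receptor that draws cells into B cell follicles, had 295 and 242 CPM in B cells, 8.81 and 1.77 CPM in T cells, 24.6 and 13.9 CPM in dendritic cells and 8.64 and 3.89 CPM in all other CD45+ cells. It rose against all 3, by 5.74 ± 0.44, 3.68 ± 0.28 and 5.18 ± 0.34 on the log2 scale. Ccr7, the receptor for entry into lymph nodes, stood between: it had 410 and 326 CPM in B cells, 94.5 and 239 CPM in T cells, and 722 and 917 CPM in dendritic cells, and thus rose against T cells (log2 1.39 ± 0.38, adjusted p = 0.0421) and fell against dendritic cells (log2 -1.29 ± 0.26, adjusted p = 0.00744). S1pr1, the receptor that guides lymphocytes back into the circulation, had 152 and 108 CPM in B cells against 13.2 and 11.7 CPM in all other CD45+ cells (log2 3.07 ± 0.33). Cd69, which opposes S1pr1 at the cell surface, was higher too, with 325 and 330 CPM in B cells against 159 and 107 CPM in T cells (log2 1.40 ± 0.27, adjusted p = 0.00729). Cxcr4, the receptor for CXCL12, had 408 and 463 CPM in B cells, above the 115 and 158 CPM of T cells (log2 1.79 ± 0.26) and the 72.4 and 83.3 CPM of dendritic cells. Itgb1, the integrin chain of many matrix receptors, was among the receptors that fell in all 3 comparisons, with 80.3 and 50.1 CPM in B cells against 231 and 224 CPM in all other CD45+ cells.

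Class II presentation genes placed the B cells below dendritic cells and above T cells. Of 12 tested, 9 rose and none fell against T cells (median 1.43), and 1 rose and 9 fell against dendritic cells (median -1.29). Of all genes, 5.4% rose and 5.81% fell against T cells, and 8.69% rose and 12.9% fell against dendritic cells. Against all other CD45+ cells 6 rose and 2 fell (median 1.01), beside 7.08% and 14% of all genes. Cd74, the invariant chain that escorts class II molecules, had 5538 and 5575 CPM in B cells, 1401 and 2302 CPM in T cells (log2 1.72 ± 0.26, adjusted p = 0.0018) and 9454 and 10204 CPM in dendritic cells (log2 -0.97 ± 0.25, adjusted p = 0.0239). H2-Aa, a class II chain, had 1447 and 2178 CPM in B cells, 414 and 916 CPM in T cells and 3396 and 4471 CPM in dendritic cells. The T cell level came from few cells: H2-Aa had a UMI in 13.3% and 19.8% of T cells, against 89.6% and 91.3% of B cells. In sample 2, 1 T cell held 224 of the 1034 UMIs of its class. The one gene above dendritic cells was H2-Ob, a chain of the H2-O molecule that restrains peptide loading, with 227 and 238 CPM in B cells against 46.9 and 37.1 CPM in dendritic cells (log2 2.32 ± 0.26, adjusted p = 0.000306). Ifi30, a thiol reductase of the loading compartment, fell against dendritic cells, at 236 and 263 CPM against 999 and 1216 CPM.

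Costimulation genes were mixed against T cells, where 3 of 13 rose and 3 fell, beside 5.4% and 5.81% of all genes. They were lower than in dendritic cells, where none of 15 rose and 9 fell (median -1.30), beside 8.69% and 12.9%. Cd83, which stabilises class II on activated cells, had 1051 and 789 CPM in B cells against 117.7 and 140 CPM in T cells (log2 2.92 ± 0.28, adjusted p = 0.000107). Dendritic cells had a similar level of Cd83, at 1021 and 820 CPM. Btla, an inhibitory receptor of lymphocytes, had 651 and 321 CPM in B cells and 39.2 and 35.4 CPM in T cells (log2 3.73 ± 0.32). Ctla4 fell, with 62.8 and 62.6 CPM in B cells against 519 and 649 CPM in T cells (log2 -3.09 ± 0.29). Cd80, a ligand of CD28, fell against all other CD45+ cells, at 110 and 41.7 CPM in B cells against 386 and 340 CPM (log2 -2.62 ± 0.38). Pdcd1lg2, which encodes PD-L2, fell against dendritic cells, at 22.7 and 41.7 CPM in B cells against 305 and 276 CPM. Cd274, which encodes PD-L1, had 262 and 109 CPM in B cells, 127 and 136 CPM in T cells and 510 and 487 CPM in dendritic cells. Its groups overlapped with T cells and it fell against dendritic cells (log2 -1.63 ± 0.32, adjusted p = 0.00577).

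Genes tied to regulatory B cells were called in both directions. Of 14 tested against all other CD45+ cells none rose and 5 fell, beside 7.08% and 14% of all genes. Of 12 tested against T cells 1 rose and 5 fell, beside 5.4% and 5.81% of all genes, and of 10 tested against dendritic cells 2 rose, Il10 and Cd38, and 2 fell, Cd9 and Ahr, beside 8.69% and 12.9%. Il10, the cytokine by which regulatory B cells are usually defined, had 11 and 4 UMIs in all B cells, or 19.2 and 16.7 CPM, against 49.6 and 16.8 CPM in T cells, 1.37 and 2.79 CPM in dendritic cells and 10.5 and 9.59 CPM in all other CD45+ cells. It rose against dendritic cells (log2 2.97 ± 0.65, adjusted p = 0.0105) and passed the test neither against T cells (log2 -0.84, adjusted p = 0.418) nor against all other CD45+ cells (log2 0.54, adjusted p = 0.613). Nt5e, which encodes the adenosine-producing enzyme CD73, fell against T cells, with 64.6 and 20.9 CPM in B cells against 327 and 306 CPM. Tgfb1 had 272 and 96.0 CPM in B cells, against 320 and 245 CPM in all other CD45+ cells, and fell there (log2 -1.05 ± 0.35, adjusted p = 0.0158).

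Immediate early genes were called in both directions. Of 20 tested, 2 rose and 9 fell against all other CD45+ cells (median -0.84), beside 7.08% and 14% of all genes. Against T cells 2 rose and 4 fell, beside 5.4% and 5.81%, and against dendritic cells 3 rose and 4 fell, beside 8.69% and 12.9%. Jun rose against T cells, with 494 and 576 CPM in B cells and 269 and 191 CPM in T cells (log2 1.32 ± 0.27, adjusted p = 0.0113). Nr4a2 fell against all 3 classes, with 75.04 and 8.35 CPM in B cells against 304 and 218 CPM in T cells (log2 -2.56 ± 0.44, adjusted p = 0.00401). Cells with 3 or more UMIs of Cd69, Nr4a1 and Egr1 were 20.9% of B cells in sample 1 and 41.3% in sample 2, and 6.67% and 17.4% at 1000 UMIs a cell.

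**Figure D4:**
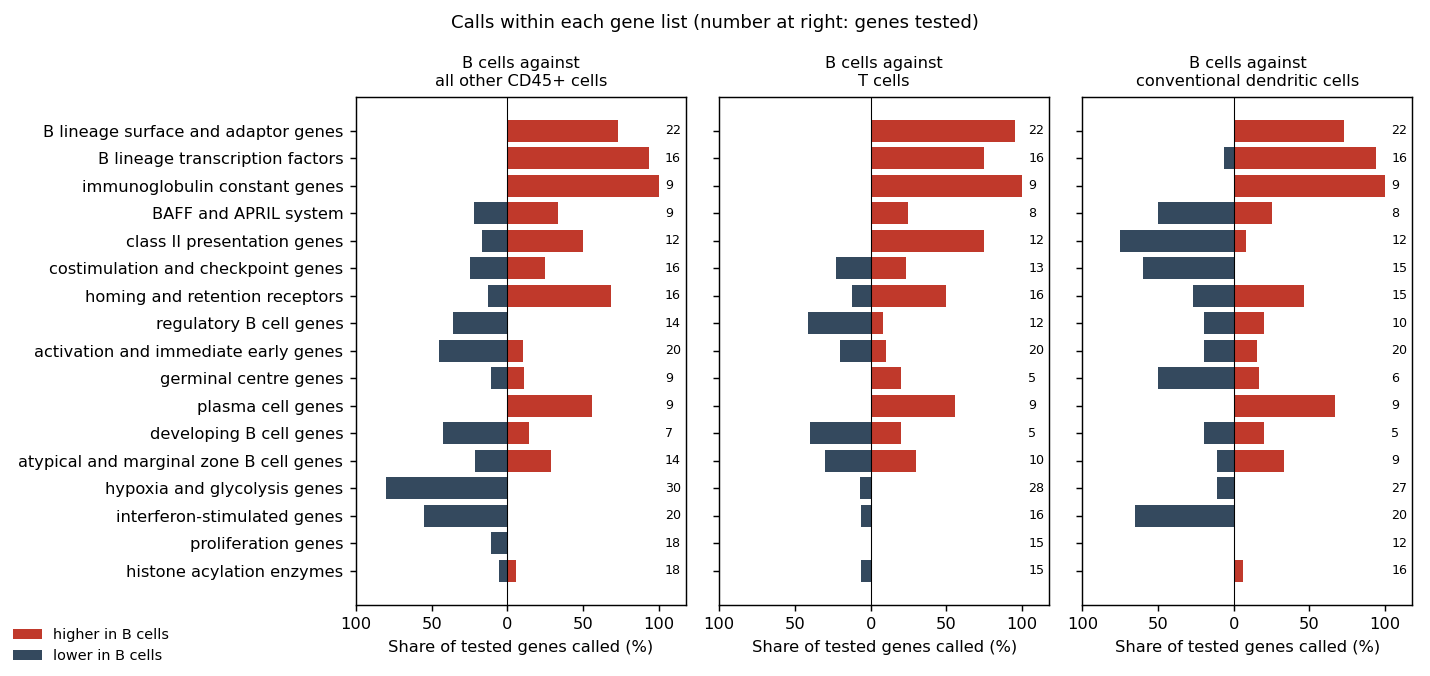
Share of the tested genes of each of 17 lists (%, x axis) called higher (right) or lower (left) in B cells than in all other CD45+ cells, T cells and conventional dendritic cells, at an adjusted p under 0.05; the number at the right of a row is how many genes were tested. Lineage lists point right in all 3 panels, class II genes point right against T cells and left against dendritic cells, and hypoxia genes point left against all other CD45+ cells.

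The hypoxia and glycolysis genes were lower in B cells than in the bulk of the CD45+ cells. Of 30 tested 24 fell and none rose (median -1.85, or -1.67 with a gene at 0 set to its bound), against 14% of all genes that fell and a median of -0.36 over all. Vegfa, the angiogenic growth factor, had 66.3 and 12.5 CPM in B cells against 261 and 334 CPM in all other CD45+ cells (log2 -3.14 ± 0.39, adjusted p = 3.78e-14). Ldha, which turns pyruvate into lactate, had 201 and 125 CPM in B cells against 489 and 666 CPM (log2 -2.13 ± 0.38). Hif1a, the oxygen-regulated transcription factor, fell against T cells as well, with 283 and 117 CPM in B cells against 782 and 721 CPM (log2 -1.89 ± 0.32, adjusted p = 0.00349). Against T cells 2 of 28 fell and none rose, and against dendritic cells 3 of 27 fell and none rose, both near the 5.81% and 12.9% of all genes that fell. Without the Lyz2-rich cells, 15 of 26 fell against T cells, beside 12.5% of all genes, and 15 of 27 fell and 1 rose against dendritic cells, where 21.1% of all genes fell. Without the highest doublet scores, 13 of 26 fell against T cells, beside 13.9% of all genes, and 14 of 27 fell and 2 rose against dendritic cells, where 21.9% of all genes fell.

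Interferon-stimulated genes were lower as well. Of 20 tested 11 fell against all other CD45+ cells (median -1.85) and 13 of 20 against dendritic cells (median -1.79), and none rose in either. Of all genes, 14% fell in the first comparison and 12.9% in the second. Against T cells 1 of 16 fell, near the 5.81% of all genes. The counts against T cells were 13 of 16 without the Lyz2-rich cells (12.5% of all genes), 12 of 15 without the highest doublet scores (13.9%) and 7 of 16 without the plasma-gate cells (6.57%). Each of these 3 settings gave 17 of 20 against all other CD45+ cells, where 15.5% to 18.8% of all genes fell. Cxcl10, the interferon-induced attractant of T cells, had 3.49 and 8.35 CPM in B cells, 163 and 50.4 CPM in dendritic cells (log2 -4.69 ± 0.61, adjusted p = 0.000672) and 114 and 98.0 CPM in all other CD45+ cells (log2 -4.74 ± 0.52). Ifit3 had 0 UMIs in the B cells and was at least 12.4-fold lower than in dendritic cells. Of the enzymes that add or remove histone acyl groups, Hdac7 rose against all other CD45+ cells (log2 1.64 ± 0.38, adjusted p = 0.000222) and dendritic cells (log2 1.82 ± 0.41, adjusted p = 0.0122), with 34 and 13 UMIs in the B cells. T cells had a similar level of Hdac7, at 60.04 and 54.05 CPM against 59.34 and 54.25 CPM in B cells. Among the enzymes tested against all other CD45+ cells, 16 of 18 passed in neither direction, where 7.08% of all genes rose and 14% fell.

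The B cells of the 2 samples were then set side by side, with no test, since each sample is 1 library. Of 4780 genes with at least 20 counts in 1 library, 211 were at least 4-fold higher in sample 1 (4.41%) and 37 at least 4-fold higher in sample 2 (0.774%). The same ratio in all other CD45+ cells was also at least 4-fold for 46 of the 211 genes and 1 of the 37, and within 2-fold for 158 and 32. Divided by the ratio in all other cells, 141 genes were at least 4-fold higher in B cells of sample 1 and 50 in those of sample 2. Lrp1b was 1 of the 46, with 888 CPM in B cells of sample 1 (95% exact Poisson interval 813 to 969) and 20.9 CPM in those of sample 2 (6.77 to 48.7). Lyz2 was 1 of the 158, with 1827 CPM in B cells of sample 1 and 188 CPM in those of sample 2. Without the Lyz2-rich and plasma-gate cells, Lyz2 had 159 and 203 CPM, and 77 and 12 genes of 3683 differed at least 4-fold. In 17 of the 211 genes higher in sample 1 and 22 of the 37 higher in sample 2, a single cell held at least 0.5 of the UMIs. Among the 22 was Ighg2b, with 14.0 CPM in sample 1 and 2466 CPM in sample 2, where all of it came from 1 cell.

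**Figure D5:**
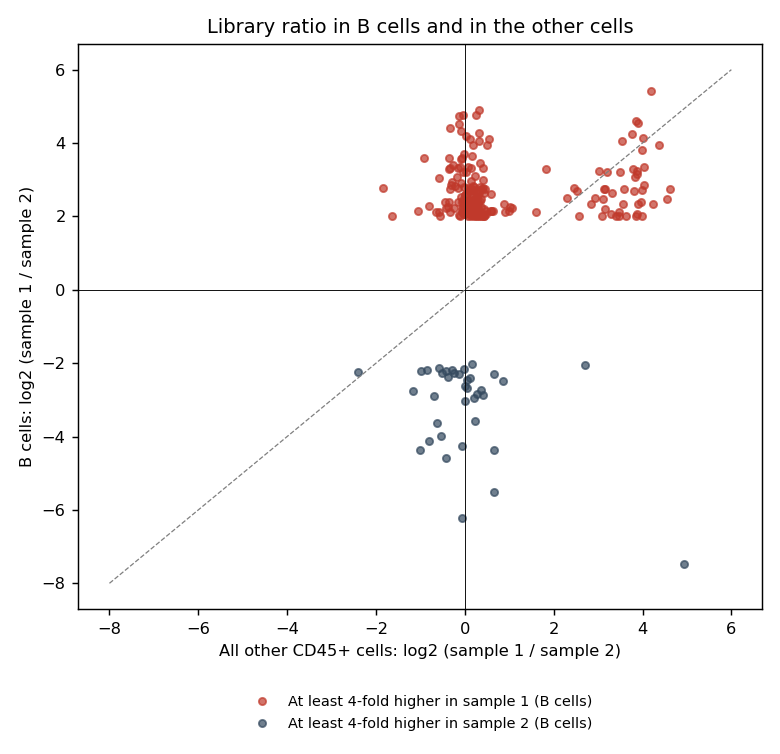
Log2 ratio of sample 1 to sample 2 in B cells (y axis) against the same ratio in all other CD45+ cells (x axis), for the genes at least 4-fold apart in B cells; the dashed line marks equal ratios. The 46 genes on the right were higher in sample 1 in both, the 158 in the upper middle were within 2-fold in all other cells, and the lowest point is Ighg2b. The Lyz2-rich and plasma-gate cells are included.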

How the data were processed

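The deposited files hold raw UMI counts per gene and cell barcode for each library, made by the authors. The submitters' processing notes name Cell Ranger 7.1.0 and mm10, and no annotation version was given in the sources used here. Counts were used as deposited. The members and gene lists were chosen with earlier results of these data known. T cells had at least 3 Cd3 UMIs, no Cd79a, Cd79b or Ms4a1 UMI and the C1q and S100 limits of the B cells. Conventional dendritic cells had at least 3 UMIs of Flt3, Zbtb46, Xcr1, Clec9a and Cd209a, no Siglech, no B or T cell UMI, and the same limits. C1q-rich phagocytes had at least 10 C1q UMIs.

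UMIs were summed per class and library and fitted with edgeR 4.0.16 in R 4.3.3 (TMM, low-count filter, quasi-likelihood test, Benjamini-Hochberg adjustment), leaving out the genes of the gates. Both classes of a library come from 1 cell suspension, so the library was a block. The deviations of classes from 1 library correlated at r = 0.231 against all other cells, 0.285 against T cells and 0.35 against dendritic cells, across genes, which are not independent replicates. Each fit had 1 residual degree of freedom before moderation. CPM in the text are per 1000000 UMIs of the class, whereas log2 changes use TMM scaling. DESeq2 1.42.0 was an alternative. On simulated sums, 41% of genes changed 4-fold were recovered against all other cells, 76% against T cells and 54% against dendritic cells, and 8%, 10% and 1% of those changed 2-fold.

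The genes named are the 10 largest rises and 5 largest falls that passed, with at least 50 CPM in the higher class and the same direction in both libraries, up to 4 genes of each list with the largest change, and a list of names taken whatever their value. Some genes of the rule and 1 gate within the B cells are not reported here. Genes named to complete a count, for the sample comparison or for their promoters were chosen after their values were seen. Scrublet (scanpy 1.11.5) called no doublet by its automatic threshold and so did not work. In its place the highest scores, 0.8% of cells per 1000 barcodes, were removed as an alternative. Gene coordinates are of mm10, and promoter sequences are RefSeq's on GRCm38.p6. Intervals and the floor of 3 counts cover counting error only.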

Additional observations from a re-analysis of the deposited data

Results flagged for a closer look

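Cells that met the B cell rule were also found in the 2 libraries of neutrophils sorted from blood, outside the comparisons above. They were 0.546% of the cells of blood library 1 (17 of 3115) and 0.471% of blood library 2 (25 of 5310). These shares depend on the S100a8 and S100a9 limit. At least 3 UMIs of the 3 B cell genes were found in 22 cells of blood library 1 and 72 of blood library 2. Of these, 2 and 47 did not meet that limit. In the neutrophils sorted from tumor, the same rule found 0 of 4140 and 1 of 6582 cells.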

How the results depend on the processing

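The p-values rest on 2 libraries, and 46 B cells in sample 2 limit what could be called there. The share of B cells averaged 1.24% over the libraries, and 0.528% to 1.95% with 1 library left out. Leaving out a library leaves no residual degree of freedom, so log2 values were compared without a test. Without the replicate block, 715 genes were higher and 889 lower than in all other cells, and no other count of calls moved by over 1.5 times. With DESeq2, 1021 genes were lower than in all other cells, 163 were higher and 180 lower than in T cells, and 390 were higher and 576 lower than in dendritic cells. Removing the highest doublet scores gave 935 higher and 1074 lower against T cells, and 1482 and 1967 against dendritic cells. Leaving out the Lyz2-rich cells, from the B cells alone and after seeing the data, gave 841 and 1050 against T cells, and 1357 and 1950 against dendritic cells. With no filter on low counts, 828 genes were lower than in T cells. The cause of these shifts was not tested. At 1000 UMIs a cell, the mean share over libraries was 45.8% for IgD (70.2% unthinned), 76.7% for IgM (92.1%), 1.36% for the plasma gate (4.63%) and 12.03% for activated cells (31.1%). With the B cell gate at 5 UMIs, IgM was 93.6%. Without the Lyz2-rich and plasma-gate cells, 77 genes were at least 4-fold higher in sample 1 and 12 in sample 2. Some log2 changes reversed, all of genes that were not called. Against all other cells these were Dntt at 2.31 (gate at 2 UMIs), Il10 at -0.97 (doublet scores) and -0.45 (plasma-gate cells left out), and Cd274 at 0.05 (gate at 5 UMIs). Against T cells they were Basp1 at 0.02 and Cd93 at 0.96 (gate at 2 UMIs), Mcm2 at -0.21 (plasma-gate cells left out), Mki67 at 0.13 (no block), and Slc2a1 at 0.06 (no block), 0.15 and 0.02 (gate at 5 and 2 UMIs), 0.14 (doublet scores) and 0.12 (plasma-gate cells left out). Against dendritic cells they were Cd93 at -0.21 and Slc2a1 at -0.47 (Lyz2-rich cells left out), Birc5 at -0.90 (DESeq2), -1.21 (doublet scores) and -1.44 (plasma-gate cells left out), Top2a at -2.67 and -2.97, and Mki67 at -2.06 and -2.35 (both under the last pair of settings).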

Other observations

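The B cells of the tumor and those in the blood sort differed in level for several B cell genes. Ighd had 415 and 459 CPM in the tumor B cells and 116 and 75.8 CPM in the blood-sort cells, and Ighm had 1653 and 1619 CPM in the tumor and 4282 and 4646 CPM in the blood sort. Ccr7 had 410 and 326 CPM in the tumor and 20.8 and 36.8 CPM in the blood sort, and Fcer2a, the low-affinity IgE receptor of follicular B cells, had 76.8 and 100.1 CPM in the tumor and 16.6 and 2.30 CPM in the blood sort. Zbtb32, a transcription factor, had 1.75 and 0 CPM in the tumor and 99.6 and 124 CPM in the blood sort, and Sox5 had 101 and 37.6 CPM in the tumor and 1548 and 1285 CPM in the blood sort. Satb1, a chromatin organiser, was the other way round, with 1592 and 1398 CPM in the tumor and 24.9 and 13.8 CPM in the blood sort. Jchain had 525 and 1661 CPM in the tumor and 0 in both blood libraries. Median depth was 2222 and 3633 UMIs in tumor B cells and 12743 and 15248 UMIs in the blood-sort cells. Ribosomal protein genes took a median of 15.7 and 19.8% of the UMIs in tumor B cells and 27.6 and 32.2% in the blood-sort cells, and mitochondrial genes 1.84 and 2.12% in the tumor and 3.71 and 3.37% in the blood sort. The part of depth and RNA content in these levels was not tested. Tissue and sorting gate change together between these cells and cannot be told apart, so a fit that was made between them is not reported. These genes were chosen after their values were seen.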
